A study of Homo sapiens with 3 samples.

Results

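A set of 9 proteins that bind double-stranded RNA or work with those that do, and that are neither innate sensors nor microRNA processing factors, was followed at the RNA level in Cal62 cells after silencing of ADAR1. Their genes were taken as a list by symbol, by a rule that holds no measured value but was written with earlier results of these data known. The list holds ILF2, STRBP and ZFR (proteins with a DZF domain), the helicase DHX9, the Staufen proteins STAU1 and STAU2, the deaminase-like protein ADAD2, and CDKN2AIP and NKRF, which bind the exonuclease XRN2. All 9 of these genes were found among the 58333 genes of the expression table, and 8 of them were expressed highly enough to be among the 20858 genes tested. Cal62, a line of human thyroid cancer cells, was grown in DMEM with fetal bovine serum. Cells received a negative control siRNA (siControl) or 1 of the siRNAs against ADAR1, siADAR1 #1 or siADAR1 #2, each with Lipofectamine RNAiMAX. All groups thus went through the same transfection, no untransfected cells were included, and the sources used here do not give the time from transfection to the isolation of this RNA. Poly(A)+ RNA was sequenced from 2 biological replicates of each transfection, which gave 6 libraries, although the labels name 1 sample per transfection. The question was how the knockdown of ADAR1 altered gene expression, and here it is asked of genes whose proteins can meet the same double-stranded RNA as ADAR1.

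Double-stranded regions form in cellular RNA where inverted repeats, often Alu elements, fold back on each other. ADAR1 converts adenosines in such regions to inosines, and many other proteins bind the same structures without editing them: they unwind them, carry the RNA through the cell, stabilize it or hand it to decay factors. DHX9 unwinds the duplexes, the Staufen proteins transport RNA and recruit the helicase UPF1 to degrade it, and the DZF domain of ILF2, STRBP and ZFR serves to form dimers between proteins.

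Between 30114840 and 50029763 reads per library were assigned to genes, and a limit of 3 reads corresponded to 2.81 to 4.39 normalized counts (reads divided by the size factor of the library), a limit that covers counting error only. ADAR, the gene of ADAR1, was measured at 10906 and 11701 normalized counts with siControl, at 1328 and 2246 with siADAR1 #1, and at 1663 and 2928 with siADAR1 #2. Every siADAR1 library was far below both siControl libraries, and the group means were 15.8% and 20.3% of siControl. A difference in ADAR between the siRNAs was not resolved (log2FC 0.35, adjusted p = 0.404 in limma). Of the 7 thyroid follicular cell markers examined, 2 (PAX8 and FOXE1) were above 50 normalized counts in every library, NKX2-1 had 0 reads in all of them and TG had at most 62.4, so the follicular cell identity was only in part visible. CD3E had 0 reads and PTPRC at most 6.28 normalized counts in each library, while CD68 was at 245 to 1566, so that the summed leukocyte list of 4 genes was 248 to 420 in siControl, 430 to 617 with siADAR1 #1 and 796 to 1566 with siADAR1 #2. The 2 mesenchymal markers, VIM and CDH2, summed to 98136 to 112089 in siControl, 10816 to 22524 with siADAR1 #1 and 56782 to 72287 with siADAR1 #2. That sum mainly followed VIM, which ran from 5464 to 105253 over the libraries, while CDH2 stayed at 4575 to 6837. Of 4 epithelial markers, 3 were above 50 normalized counts in every library, with sums of 71151 to 89898 in siControl, 98864 to 103010 with siADAR1 #1 and 61622 to 70578 with siADAR1 #2, and PECAM1 was at most 33.9. The summed thyroid list ran from 14298 to 16115 in siControl, from 10509 to 15226 in the siADAR1 #1 libraries and from 2819 to 5705 in the siADAR1 #2 libraries, mainly through PAX8. The mesenchymal sum was thus lowest with siADAR1 #1, the thyroid sum was lowest and the leukocyte sum highest with siADAR1 #2, and the epithelial sum was highest with siADAR1 #1 and lowest with siADAR1 #2, and the part of any of them in the changes described below was not tested.

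In siControl cells, the expression level per kilobase of annotated exon ran over a 21.7-fold range among the 8 expressed genes. ILF2 was the highest, at 5790 ± 402 normalized counts per kb (SD, n = 2), followed by STAU1 at 4186 ± 418 and DHX9 at 2599 ± 24.8. ZFR stood at 1343 ± 158 per kb. The lower levels per kb were those of NKRF (579 ± 19.3), STAU2 (471 ± 61.5), STRBP (398 ± 4.76) and CDKN2AIP (267 ± 42.2). No neighbours in this order overlapped in their 2 siControl libraries, although NKRF moved from place 5 to place 7 when the length of the coding sequence was used instead. ILF2 stood at percentile 98.8 and CDKN2AIP at percentile 67.7 of the 20710 tested genes that have a length.

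**Figure D1:**
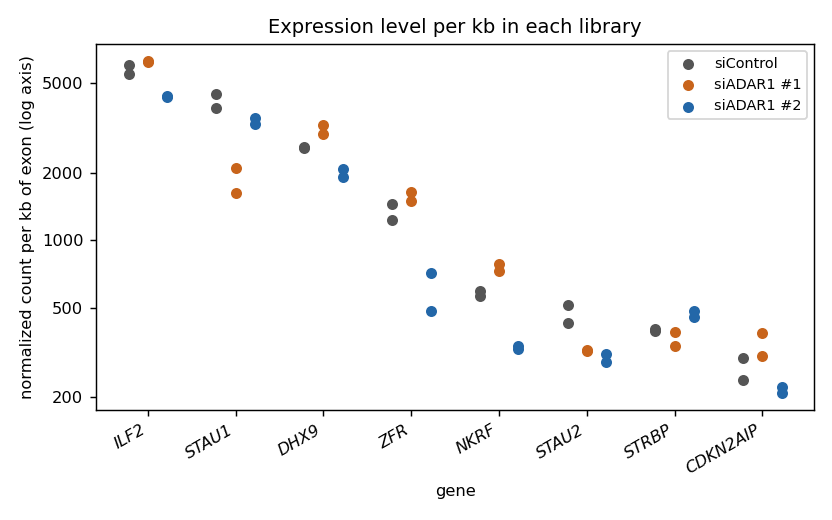
Normalized count per kilobase of exon (log axis) of the 8 expressed genes in each of the 6 libraries, 2 points per condition, ordered by the siControl mean. ILF2 led with 5790 per kb and CDKN2AIP was lowest with 267 in siControl, and the blue points (siADAR1 #2) lay below the orange points (siADAR1 #1) for every gene except STAU1 and STRBP.

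A gene was called when its adjusted p was under 0.05 and its log2FC was beyond 0.5 in either direction, in a limma fit to all 20858 genes. With siADAR1 #1, 2 of the 8 genes were called lower than in siControl, STAU1 and STAU2, and 0 were called higher, against a background of 16.8% of all genes called, 10.6% called lower and 18.3% past the adjusted p alone. With siADAR1 #2, 3 were called lower, STAU2, ZFR and NKRF, and 0 higher, and ILF2 and DHX9 passed the adjusted p alone with smaller falls. The background there was 26.6% called, 15.5% called lower and 29.4% past the adjusted p. At an unadjusted p under 0.05, 4 of the 8 genes passed with siADAR1 #1 and 5 with siADAR1 #2, beside 32.6% and 40.6% of all genes, and voom on the recovered reads called the same numbers, 2 and 3. The siRNAs are compared with the same siControl libraries, so these lists are not independent. The shares of genes called lower were above these backgrounds, by 1 or 2 genes of 8, without a test of the list. Those backgrounds include weakly expressed genes, while the listed genes are at percentile 67.7 or higher per kb. In a fit to the 14177 genes averaging at least 50 normalized counts, 2253 were called lower with siADAR1 #1 and 3117 with siADAR1 #2. The excess over genes of that level is thus smaller, and it was not tested.

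The largest number of these genes was called between the siRNAs themselves. ILF2, DHX9, ZFR, CDKN2AIP and NKRF were called lower with siADAR1 #2 than with siADAR1 #1, and STAU1 was called higher, which makes 6 of 8 genes called. STRBP also passed the adjusted p, in the higher direction, and STAU2 did not pass. Among all genes, 32.8% were called in this comparison, 16.1% lower and 16.7% higher, and 36.4% passed the adjusted p alone. In the fit to the 14177 genes averaging at least 50 normalized counts, 6010 were called, a larger share. The share of the 8 genes was above both backgrounds here, without a test of the list. The median log2FC of the 8 genes was 0.17 with siADAR1 #1, -0.39 with siADAR1 #2 and -0.58 between the siRNAs, beside medians of -0.02, -0.01 and 0.00 over all genes tested.

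**Figure D2:**
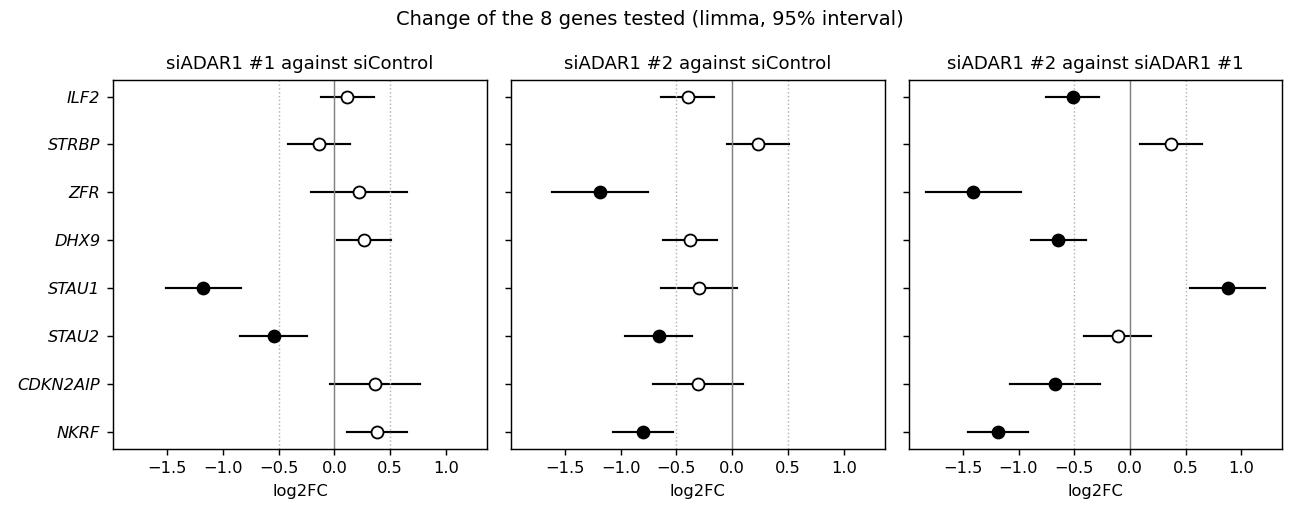
Log2FC of the 8 tested genes in each comparison, with the 95% interval of the limma fit, where filled points passed the adjusted p of 0.05 and a log2FC beyond 0.5 (dotted lines) and open points did not. STAU1 and STAU2 were called with siADAR1 #1, STAU2, ZFR and NKRF with siADAR1 #2, and all but STRBP and STAU2 between the siRNAs.

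The sequences just upstream of the start sites are shown for the 5 genes that were lower with siADAR1 #2 than with siADAR1 #1, and for STAU1, which was higher, because these genes carry the split between the siRNAs. Each is the 100 bases before the start site in RefSeq (GRCh38.p14), on the strand of the gene, with capitals at matches on either strand to the CCAAT box, to the GC box GGGCGG, to the ETS core CGGAAG or to the TATA box TATAAA.
ILF2, chr1:153670994-153671093, minus strand: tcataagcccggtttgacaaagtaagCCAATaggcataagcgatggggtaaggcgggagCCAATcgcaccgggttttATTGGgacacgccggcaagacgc
DHX9, chr1:182839247-182839346, plus strand: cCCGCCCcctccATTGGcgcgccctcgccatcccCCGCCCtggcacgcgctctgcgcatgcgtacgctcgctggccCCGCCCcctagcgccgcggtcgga
CDKN2AIP, chr4:183444536-183444635, plus strand: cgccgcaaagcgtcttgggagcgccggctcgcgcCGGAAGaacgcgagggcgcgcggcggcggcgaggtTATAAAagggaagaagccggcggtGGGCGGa
ZFR, chr5:32444741-32444840, minus strand: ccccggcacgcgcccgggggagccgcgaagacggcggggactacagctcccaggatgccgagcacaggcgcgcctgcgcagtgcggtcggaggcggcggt
NKRF, chrX:119606425-119606524, minus strand: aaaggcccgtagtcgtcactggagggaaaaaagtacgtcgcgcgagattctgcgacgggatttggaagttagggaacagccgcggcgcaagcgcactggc
STAU1, chr20:49188335-49188434, minus strand: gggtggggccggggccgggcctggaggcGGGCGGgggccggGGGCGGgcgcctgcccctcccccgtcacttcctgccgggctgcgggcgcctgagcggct

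These upstream sequences share no one motif. Over the 250 bases before the start, ILF2 had 5 CCAAT matches and a GC content of 43.6%, DHX9 had 4 GC boxes, 1 CCAAT box and 1 ETS core, CDKN2AIP had 4 GC boxes, 1 ETS core and 1 TATA box, STAU1 had 2 GC boxes, NKRF had 1 GC box and ZFR had no match to any of the 4 motifs. Of 35116 RefSeq promoters searched over the same length, 32.0% held the CCAAT box, 42.6% the GC box, 16.5% the ETS core and 10.7% the TATA box. STAU1 has a second start in RefSeq, not shown here, with 3 ETS cores and 1 GC box over the 250 bases before it. STAU2 was not matched.

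ILF2 (NF45; ENSG00000143621, chr1:153661788-153671028, minus strand) was the most highly expressed of the DZF proteins on the list. It was measured at 13733 and 12448 normalized counts with siControl, at 14042 and 14300 with siADAR1 #1, and at 9990 and 9839 with siADAR1 #2. Both siADAR1 #2 libraries lay below the other 4, at 75.7% of the siControl mean, while the siADAR1 #1 libraries were just above siControl. The fall with siADAR1 #2 passed the adjusted p but not the fold threshold (log2FC -0.40, SE 0.10, 95% interval -0.64 to -0.16, adjusted p = 0.0224 in limma and up to 0.108 over 17 settings), and the change with siADAR1 #1 was 0.12 (-0.12 to 0.35, adjusted p = 0.486). Between the siRNAs ILF2 was called lower with siADAR1 #2 (log2FC -0.52, adjusted p = 0.00626), a call that missed the fold threshold with quantile-normalized libraries (-0.45).

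ZFR (ENSG00000056097, chr5:32354350-32444740, minus strand), a zinc finger protein with a DZF domain, had the widest range of group means on the list, 1.41 on the log2 scale. Its normalized counts were 9847 and 8337 with siControl, 11049 and 10083 with siADAR1 #1, and 3282 and 4834 with siADAR1 #2. The siADAR1 #2 libraries were well below all others, at 44.6% of the siControl mean, and the siADAR1 #1 libraries were above both siControl libraries. The fall with siADAR1 #2 was called (log2FC -1.19, SE 0.19, adjusted p = 0.00277 in limma), as was the difference between the siRNAs (-1.41, adjusted p = 0.00106), while the change with siADAR1 #1 was not (0.22, 95% interval -0.21 to 0.65, adjusted p = 0.461). Both calls were kept in each of 17 settings tried.

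STRBP (ENSG00000165209, chr9:123109500-123268586, minus strand), known for RNA binding in spermatids, changed the least. Its normalized counts were 3260 and 3206 with siControl, 2735 and 3157 with siADAR1 #1, and 3911 and 3699 with siADAR1 #2. The siADAR1 #2 libraries were the highest, and the siADAR1 #1 libraries were the lowest, by a small margin. Neither siRNA gave a call against siControl (log2FC -0.14, 95% interval -0.42 to 0.14, and 0.23, interval -0.04 to 0.51), and the difference between the siRNAs was 0.37 (adjusted p = 0.0432 in limma, and up to 0.191 over the settings). The host gene of MIR600 overlaps STRBP on the same strand, with reads that amounted to at most 8.27% of those of STRBP in a library.

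ZFR2, a paralog of ZFR, was added to these genes. Of the 4 DZF genes, 1 was called lower with siADAR1 #1 (ZFR2), 1 with siADAR1 #2 (ZFR) and 0 higher with either. Over all genes, 10.6% and 15.5% were called lower. At an unadjusted p under 0.05 in limma, 1 of 4 passed with siADAR1 #1 and 2 with siADAR1 #2, which is near the 32.6% and 40.6% of all genes. The median log2FC of the 4 genes was -0.01 with siADAR1 #1 and -0.08 with siADAR1 #2.

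DHX9 (RNA helicase A; ENSG00000135829, chr1:182839347-182887982, plus strand) unwinds double-stranded RNA, including duplexes of inverted Alu repeats. Its normalized counts were 15225 and 15432 with siControl, 19309 and 17547 with siADAR1 #1, and 11308 and 12275 with siADAR1 #2. The groups did not overlap, with siADAR1 #1 on top at 120% of the siControl mean and siADAR1 #2 at the bottom at 76.9%. The change with siADAR1 #1 did not pass (log2FC 0.26, SE 0.11, 95% interval 0.02 to 0.51, adjusted p = 0.128 in limma) and the one with siADAR1 #2 passed the adjusted p only (-0.38, adjusted p = 0.0304, and up to 0.191 over the settings). Between the siRNAs DHX9 was called lower with siADAR1 #2 (-0.64, adjusted p = 0.00270), in all 17 settings.

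Helicases of the DEAH and DEAD box families, DHX9 included, were examined as its relatives. With siADAR1 #1, 1 of 11 helicases was called lower and 1 higher, and with siADAR1 #2 1 was called lower and 0 higher. Between the siRNAs, 4 were called lower and 1 higher with siADAR1 #2. Over all genes, 10.6% were called lower with siADAR1 #1, 15.5% with siADAR1 #2 and 16.1% between the siRNAs. DDX21, a nucleolar helicase, had log2FC of 0.36 (adjusted p = 0.0411) and -0.33 (adjusted p = 0.0373) with the siRNAs, and was called lower with siADAR1 #2 than with siADAR1 #1 (-0.69, adjusted p = 0.00143 in limma). DDX3X, which acts in translation initiation, was called higher with siADAR1 #1 (0.60, adjusted p = 0.0193) and had a log2FC of 0.01 with siADAR1 #2. DDX1 had log2FC of 0.30 and 0.25, neither past the adjusted p. Of genes singled out after their values were seen, DHX57 fell with siADAR1 #2 (-1.09, adjusted p = 0.00679 in limma). DHX29 went the other way: it was called lower with siADAR1 #1 (-0.76, adjusted p = 0.0111) and was at 0.005 with siADAR1 #2. It was called higher with siADAR1 #2 than with siADAR1 #1 (0.76, adjusted p = 0.00430 in limma).

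STAU1 (ENSG00000124214, chr20:49113339-49188367, minus strand) binds double-stranded structures in messenger RNA, transports them and triggers their decay through UPF1. It had normalized counts of 18347 and 15929 with siControl, 6649 and 8612 with siADAR1 #1, and 13435 and 14387 with siADAR1 #2. All 4 siADAR1 libraries were below both siControl libraries, but only those of siADAR1 #1 were far below, at 44.5% of the siControl mean against 81.2% for siADAR1 #2. The fall with siADAR1 #1 was called (log2FC -1.18, SE 0.15, 95% interval -1.51 to -0.84, adjusted p = 0.00345 in limma), and the change with siADAR1 #2 was not (-0.30, interval -0.64 to 0.04, adjusted p = 0.169). The difference between the siRNAs was called as well (0.88, adjusted p = 0.00282), and the calls with siADAR1 #1 and between the siRNAs were kept in all 17 settings.

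STAU2 (ENSG00000040341, chr8:73420369-73747708, minus strand), the paralog known for RNA transport in neurons, was the one gene of the list called lower with each siRNA. It had normalized counts of 4610 and 3830 with siControl, 2862 and 2889 with siADAR1 #1, and 2549 and 2782 with siADAR1 #2. All 4 siADAR1 libraries were below both siControl libraries, at 68.1% and 63.2% of the siControl mean, and the siRNAs did not differ beyond their error (log2FC -0.11, 95% interval -0.41 to 0.19, adjusted p = 0.554). The falls were -0.55 with siADAR1 #1 (SE 0.13, adjusted p = 0.0252 in limma) and -0.66 with siADAR1 #2 (adjusted p = 0.00751), and both are set against the same siControl libraries. These calls were near the threshold. With siADAR1 #1 the call was lost with median-centred libraries (-0.40, adjusted p = 0.0653) or quantile-normalized libraries (-0.48), without siControl replicate 1 (-0.41, adjusted p = 0.144), without siADAR1 #1 replicate 1 (-0.54, adjusted p = 0.0994) without siADAR1 #1 replicate 2 (-0.55, adjusted p = 0.0580), with every gene that has a read kept (adjusted p = 0.0509) and with eBayes without a trend (adjusted p = 0.0983). With siADAR1 #2 the call was lost without siControl replicate 1 (-0.52, adjusted p = 0.0579) or without siADAR1 #2 replicate 1 (-0.59, adjusted p = 0.0586). A protein-coding gene, ENSG00000258677, overlaps STAU2 on the same strand, with reads that amounted to at most 4.27% of those of STAU2 in a library.

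The balance between the Staufen transcripts differed by siRNA. The ratio of STAU1 to STAU2 per kb was 8.71 and 9.11 with siControl, 5.09 and 6.53 with siADAR1 #1, and 11.5 and 11.3 with siADAR1 #2, so the libraries of the groups did not overlap. STAU1 and STAU2 were the 2 genes of the list in which each of the 4 siADAR1 libraries was lower than either siControl library, a pattern seen in 16.6% of all genes tested. When the siADAR1 libraries were treated as 1 group, limma called 0 of the 8 genes and 0% of all genes, and voom also called 0. In that fit 1 gene of the list had an unadjusted p under 0.05, as did 14.0% of all genes, STAU2 (adjusted p = 0.197 in limma over all genes). When the siRNA changes were averaged in the fit with 3 groups, STAU1 (log2FC -0.74, adjusted p = 0.00735) and STAU2 (-0.60, adjusted p = 0.00970) were called lower, against 11.1% of all genes.

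**Figure D3:**
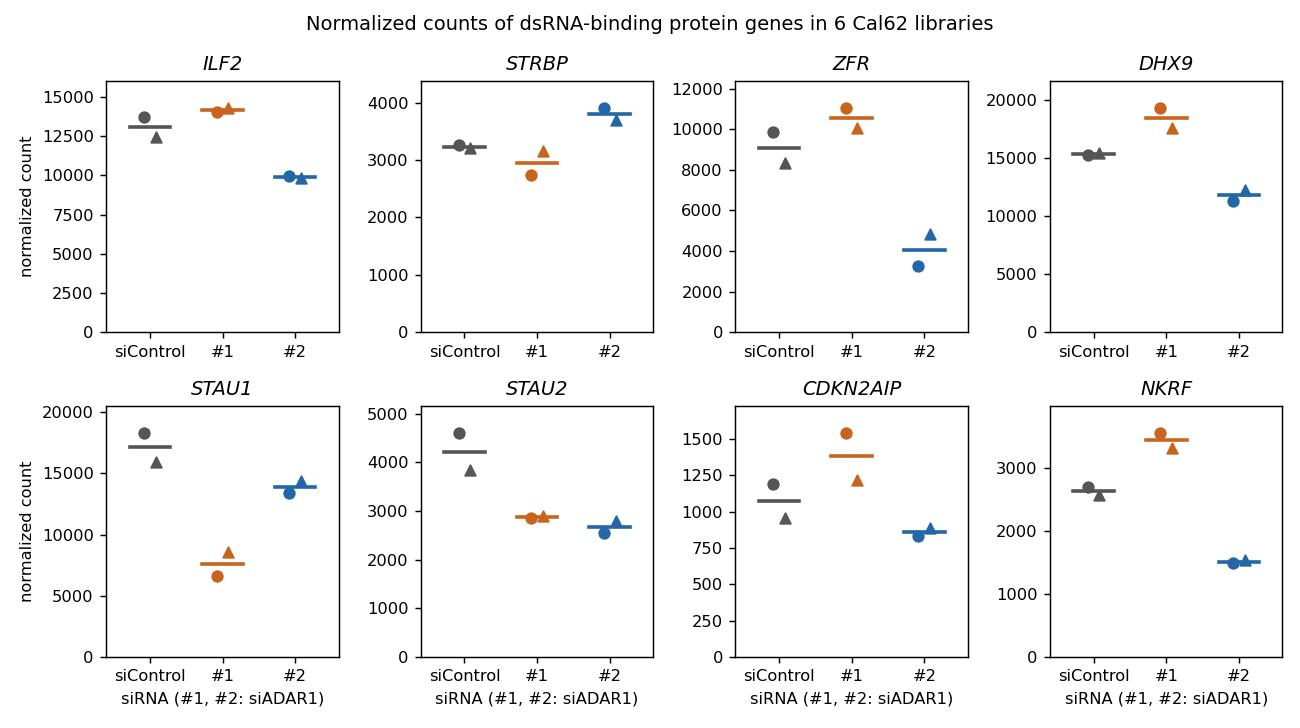
Normalized counts of the 8 expressed genes in each library (circle, replicate 1 and triangle, replicate 2; horizontal line, mean of 2 libraries), with each vertical axis starting at 0. STAU1 was lowest with siADAR1 #1 (6649 and 8612), ZFR with siADAR1 #2 (3282 and 4834), and STAU2 was below both siControl libraries with either siRNA.

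Genes of Staufen-mediated decay were also measured. Of 10 such genes, the Staufen genes included, 4 were called lower and 0 higher with siADAR1 #1. With siADAR1 #2, 4 were called lower and 1 higher. Over all genes, 10.6% and 15.5% were called lower, and the list was not tested against them. STAU1 and STAU2 are among the 4 with siADAR1 #1, and STAU2 is among the 4 with siADAR1 #2. UPF1, the helicase that the Staufen proteins recruit, was called lower with siADAR1 #1 (log2FC -0.65, adjusted p = 0.0129 in limma) and with siADAR1 #2 (-0.56, adjusted p = 0.0123). Its normalized counts were 10596 and 9743 with siControl against 5956 to 7224 in the siADAR1 libraries, with no overlap. SMG1, the kinase that phosphorylates UPF1, went the other way with siADAR1 #2 (0.64, adjusted p = 0.00273) and was at 0.12 with siADAR1 #1. PNRC2, which links UPF1 to decapping, had log2FC of 0.41 (adjusted p = 0.0433) and 0.30 (adjusted p = 0.0850). Of genes singled out after their values were seen, the endonuclease SMG6 fell with siADAR1 #1 (-1.03, adjusted p = 0.00590) and was at 0.04 with siADAR1 #2, a difference that was itself called (1.07, adjusted p = 0.00159), and UPF3B fell with siADAR1 #2 (-0.73, adjusted p = 0.00376).

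Components of RNA transport granules that travel with Staufen had a median log2FC of 0.18 with siADAR1 #1 and -0.29 with siADAR1 #2. Of 10, the Staufen genes included, 2 were called lower with siADAR1 #1, STAU1 and STAU2 themselves, and 4 with siADAR1 #2. Over all genes, 10.6% and 15.5% were called lower. Between the siRNAs, 3 of the 10 were called lower and 1 higher with siADAR1 #2, near the 32.8% of all genes called there. With either siRNA 0 were called higher against siControl, although FXR2 passed the adjusted p upward with each. FXR2, a relative of the fragile X protein, had log2FC of 0.50 (adjusted p = 0.0237) and 0.45 (adjusted p = 0.0227 in limma). Its relative FXR1 had log2FC of 0.24 and -0.15, and PUM2, a repressor of translation, had 0.30 and -0.06, and none of these passed. The motor protein gene KIF5B was at 0.37 and -0.15, and it was called lower with siADAR1 #2 than with siADAR1 #1 (-0.53, adjusted p = 0.0175). CAPRIN1, named after its values were seen, had the largest fall of the list with siADAR1 #2 (-1.25, adjusted p = 0.000491) and was at 0.16 with siADAR1 #1.

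**Figure D4:**
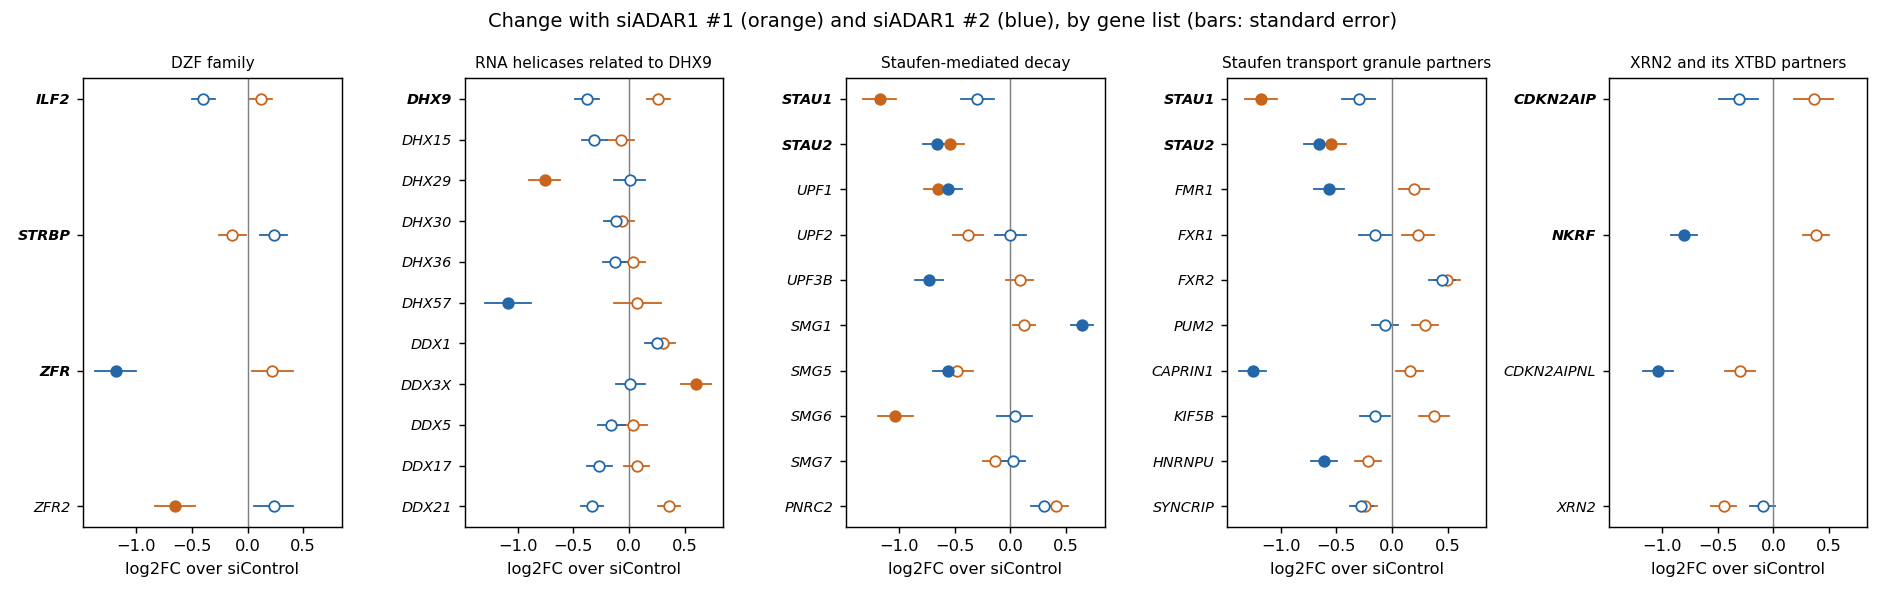
Log2FC over siControl with siADAR1 #1 (orange) and siADAR1 #2 (blue) for the families and partners of the listed genes, where bars are standard errors, filled points are called and bold names are genes of the list. UPF1 was called lower with both siRNAs (-0.65 and -0.56), while ZFR and CAPRIN1 were called lower with siADAR1 #2 alone against siControl (-1.19 and -1.25).

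CDKN2AIP and NKRF share an XRN2-binding domain, by which they hold the nuclear exonuclease XRN2. NKRF (ENSG00000186416, chrX:119588337-119606443, minus strand), named as a repressor of NF-kB target genes and active in the nucleolus, had normalized counts of 2700 and 2575 with siControl, 3561 and 3314 with siADAR1 #1, and 1489 and 1534 with siADAR1 #2. The groups were separate, with siADAR1 #1 on top at 130% of the siControl mean and siADAR1 #2 at the bottom at 57.3%. The fall with siADAR1 #2 was called (log2FC -0.80, SE 0.12, 95% interval -1.07 to -0.53, adjusted p = 0.00199 in limma), and so was the difference between the siRNAs (-1.18, adjusted p = 0.000364), both in all 17 settings. The change with siADAR1 #1 was not called (0.38, adjusted p = 0.0564), but it was with median-centred libraries (0.53, adjusted p = 0.0281).

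The end of NKRF overlaps UBE2A, a ubiquitin-conjugating enzyme gene on the opposite strand, and the strand setting of the counting is not given in the sources used here, so reads from the overlap cannot be assigned with certainty. UBE2A had normalized counts of 5912 and 5228 with siControl, 6584 and 6092 with siADAR1 #1, and 3548 and 4021 with siADAR1 #2, and its reads reached 262% of those of NKRF in a library. Its log2FC were 0.19 (adjusted p = 0.337) with siADAR1 #1 and -0.56 (adjusted p = 0.0119 in limma) with siADAR1 #2. UBE2A thus had its highest and lowest libraries in the same groups as NKRF, and the part of shared reads in this was not tested.

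CDKN2AIP (ENSG00000168564, chr4:183444635-183449064, plus strand), which binds the tumor suppressor ARF, was the lowest expressed of the 8 genes per kb. It had normalized counts of 1194 and 954 with siControl, 1546 and 1217 with siADAR1 #1, and 835 and 888 with siADAR1 #2. Every siADAR1 #1 library was above siControl and every siADAR1 #2 library was below it, but neither change passed (log2FC 0.36, 95% interval -0.04 to 0.77, adjusted p = 0.199, and -0.31, interval -0.71 to 0.10, adjusted p = 0.230 in limma). The difference between the siRNAs was called (-0.67, adjusted p = 0.0193). This call was lost without siADAR1 #1 replicate 1 (-0.50, adjusted p = 0.1002), without siADAR1 #2 replicate 1 (-0.63, adjusted p = 0.0909), without siADAR1 #2 replicate 2 (-0.72, adjusted p = 0.0543) and with eBayes without a trend (adjusted p = 0.0595).

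The 2 other genes of this small group, given here after their values were seen, did not move as one. CDKN2AIPNL, which carries the same domain, had normalized counts of 1834 and 1622 with siControl, 1339 and 1462 with siADAR1 #1, and 819 and 861 with siADAR1 #2, and it was called lower with siADAR1 #2 (log2FC -1.04, adjusted p = 0.00141 in limma). XRN2 itself was at 17081 and 15070 with siControl, 11213 and 12368 with siADAR1 #1, and 14999 and 15070 with siADAR1 #2. It was thus lowest with siADAR1 #1 (-0.45, adjusted p = 0.0304, short of the fold threshold), where NKRF and CDKN2AIP were highest. With siADAR1 #2, 2 of the 4 genes of this group were called lower, NKRF and CDKN2AIPNL. With siADAR1 #1, 0 of 4 were called while 2 had an unadjusted p under 0.05 in limma. Over all genes, 15.5% were called lower with siADAR1 #2, 16.8% were called with siADAR1 #1, and 32.6% passed that unadjusted p there.

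ADAD2 (ENSG00000140955, chr16:84191138-84197168, plus strand), a testis protein with a domain like that of the ADAR enzymes, had 0 reads in 5 of the 6 libraries and 2 reads in siADAR1 #2 replicate 2, which is under the limit of 3 reads. It was not tested, and no expression of it was detectable at this depth. Of the 6 genes of the deaminase family, 3 were tested, ADAR among them, and ADARB1, an editing enzyme itself that is named after its values were seen, had a log2FC of 0.97 with siADAR1 #2 (adjusted p = 0.0203 in limma) and 0.77 with siADAR1 #1 (adjusted p = 0.0651, and called with the replicate block).

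The profile of ZFR, the gene with the widest range, was compared with that of 14176 genes with a mean of at least 50 normalized counts, as the root mean square difference of log2 values centred over the 6 libraries. The nearest were UBE2D1 (0.0523), TFDP2 (0.0541) and RIMOC1 (0.0552), whose log2FC were 0.20, 0.22 and 0.22 with siADAR1 #1 and -1.19, -1.20 and -1.15 with siADAR1 #2. NKRF, at 0.222 and place 379, was the nearest gene of the list. These distances describe 6 libraries that fall into 3 transfections.

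Other genes of double-stranded RNA biology gave these counts in the same fits. Of 10 sensors, 0 were called in any of the 3 comparisons by limma without a replicate term, with 0 past an unadjusted p of 0.05 with siADAR1 #1, 2 with siADAR1 #2 and 1 between the siRNAs (45.7% of all genes there), and their median log2FC were 0.40 with siADAR1 #1 and 1.24 with siADAR1 #2. The sensors split by replicate number, with 8 of 10 higher in replicate 2 in every condition. The share of all genes with this split was not counted. OAS1, for example, named after its values were seen, was at 31.6, 44.9 and 134 normalized counts in replicate 1 of siControl, siADAR1 #1 and siADAR1 #2, and at 285, 1585 and 3095 in replicate 2. With the replicate number as a block, 3 sensors were called higher with siADAR1 #1, 6 with siADAR1 #2 and 4 between the siRNAs, and 0 lower. Of all 20858 genes, that fit called 1532, 2575 and 3727 higher in the same comparisons, and the list was not tested against them. The counts of the DZF, helicase, Staufen and XRN2 lists were the same with the block. Of 6 microRNA processing genes, 1 was called lower with siADAR1 #1 and 2 with siADAR1 #2, beside 10.6% and 15.5% of all genes. Those with siADAR1 #2 include DICER1 (log2FC -1.89, adjusted p = 0.000338 in limma), named after its values were seen. A difference of these groups from the 8 genes described here was not tested. In bulk RNA of this kind, fewer cells expressing a gene and less RNA per cell cannot be told apart.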

How the data were processed

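The authors trimmed 75-bp paired-end reads with Atropos, counted them on known genes with featureCounts in bcbio-nextgen (GRCh38 per the labels, which also name FastQC and Salmon). Normalization was by DESeq2, for which the methods prefer gene counts estimated from Salmon, and which counts lie behind the table is not given in the sources used here. The deposited table holds log2 values, which behave as variance-stabilized normalized counts: all libraries share the minimum, 0.347736, which stands for no read, and undoing the curve gave whole reads for 100% of values within a tolerance of 0.1. Of the 6 columns, 0 were left unused. Symbols and exon lengths came from GENCODE release 44 (57830 genes matched, 503 not).

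Group differences were fitted on these values by lmFit and eBayes with trend (limma 3.58.1, R 4.3.3; two-sided, Benjamini-Hochberg adjustment over all genes tested) in 3 groups with 3 residual degrees of freedom, or 4 with the siADAR1 libraries as 1 group. The filter was a mean of log2(10), which corresponds to 7.617 normalized counts. With 2 libraries per group, the number of replicates limits precision besides the depth of 30114840 to 50029763 reads. The steps were tested on simulated counts in which the changed genes moved equally with both siRNAs, without a replicate effect. That setting differs from these data, in which many genes differ between the siRNAs. The listed genes, the partner lists and the tests were chosen with earlier results of these data known. Partner genes were named when called with both siRNAs or opposite in sign to their listed gene, at most 4 per list, with the 3 genes nearest to the profile of widest range. Some genes of the partner lists are not reported here, and the lists were counted without them.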

Additional observations from a re-analysis of the deposited data

Results flagged for a closer look

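A difference between the siRNAs, tested as the contrast of siADAR1 #2 with siADAR1 #1, brought 7 of the 8 tested genes to attention. Over all genes, 36.4% passed the adjusted p in this contrast. In the fit to the 14177 genes averaging at least 50 normalized counts, 6982 passed. The log2FC was -0.52 for ILF2 (adjusted p = 0.00626 in limma), -0.64 for DHX9 (adjusted p = 0.00270), -1.41 for ZFR (adjusted p = 0.00106), -0.67 for CDKN2AIP (adjusted p = 0.0193) and -1.18 for NKRF (adjusted p = 0.000364), all lower with siADAR1 #2. It was 0.88 for STAU1 (adjusted p = 0.00282) and 0.37 for STRBP (adjusted p = 0.0432), both higher with siADAR1 #2. The change against siControl had opposite signs with the siRNAs in ILF2, DHX9, ZFR, CDKN2AIP, NKRF and STRBP, and the same sign in STAU1. In the genes of opposite sign, no change with siADAR1 #1 passed the adjusted p in this fit, so these signs are not resolved. For STRBP the sign with siADAR1 #1 turned positive with median-centred libraries (0.0073).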

How the results depend on the processing

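With siADAR1 #1, 3502 genes were called, 1347 without a trend and 392 (without siControl replicate 1) to 3680 when single libraries were left out, with 1248 without siControl replicate 2 and 1412 without siADAR1 #1 replicate 1. Of the listed genes 2 were called, and 1 (STAU1) without a filter, with quantile normalization or without a trend, with a range of 1 to 2 when a library was left out. With siADAR1 #2, 5541 were called, and 3150 (without siControl replicate 1) to 5758 with a library left out (3242 without siADAR1 #2 replicate 1). Between the siRNAs 6838 were called (4810 to 6360). With the siADAR1 libraries as 1 group 0 genes were called, against 3585, with 2 listed genes, for the average of the siRNA changes, which leaves the difference between the siRNAs out of the error. The span of levels was 17.3-fold per coding kilobase. Median centring shifted the median of all genes to 0.12 with siADAR1 #1 and -0.13 between the siRNAs, and changed the split of lower and higher calls from 2212 and 1290 to 1706 and 1951 (1852 and 1692 with quantile normalization), and from 3350 and 3488 to 4274 and 2854. The sign turned in values that were not called: STRBP with siADAR1 #1 when median-centred (0.0073), ADAR between the siRNAs (-0.025 and -0.054 without siADAR1 #1 replicate 1 or siADAR1 #2 replicate 2, range -0.054 to 0.76), and, with the siADAR1 libraries as 1 group, DHX9 (0.023 median-centred, 0.046 quantile-normalized, 0.069 and 0.030 without siADAR1 #2 replicate 1 or 2, range -0.19 to 0.069), STRBP (-0.027 and -0.00030 without the same, range -0.027 to 0.14) and CDKN2AIP (-0.14 without siControl replicate 2, -0.14 and -0.028 without siADAR1 #1 replicate 1 or 2, range -0.14 to 0.19). The cause was not tested. With the replicate block the counts were 4086, 6038, 7275 and 0, and no listed gene changed its call, while 3, 6 and 4 of 10 sensors were called in the first 3 comparisons, where 0 had been. Differences between replicate 2 and replicate 1 correlated at 0.106 to 0.162 over genes, and with 2 numbers this does not establish a pairing.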
